A study of Mus musculus with 6 samples.

Results

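The transcription factors that direct helper and cytotoxic T cell lineages were followed in mouse induced regulatory T cells (iTreg) after exposure to prostaglandin E2 (PGE2). The set holds 10 genes taken by name, Tbx21, Eomes, Gata3, Rora, Bcl6, Runx1, Runx3, Prdm1, Maf and Ahr, of 47643 annotated gene IDs in each library's table, and each name matched exactly 1 annotated gene. The libraries fall into PGE2-treated cells (100 nM for 6 h, 3 libraries) and vehicle-treated cells (DMSO for 6 h, 3 libraries). All came from C57BL/6 mice of genotype Foxp3-DTR/EGFP, in which a diphtheria toxin receptor and EGFP mark cells that express Foxp3. CD4+ T cells of the spleen were activated for 2 days through CD3 and CD28 in the presence of TGF-β, PGE2 or vehicle followed, and GFP+ cells were sorted for polyadenylated RNA sequencing. The labels do not give the age or sex of the mice, and do not say that a replicate is an animal or culture of its own. The p-values therefore speak to the spread among the libraries, which may be technical. The cells are made in culture from CD4+ T cells, and what is seen in them need not hold for regulatory T cells taken from tissue.

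Each helper lineage is tied to a leading transcription factor. T-bet (Tbx21) directs the Th1 programme, GATA3 the Th2 programme, the ROR factors the Th17 programme and BCL6 the follicular helper programme, while Eomes, RUNX3 and Blimp-1 (Prdm1) belong to the programme of cytotoxic and effector cells. Regulatory T cells can co-express several of these factors beside Foxp3, and subsets marked by T-bet, GATA3, c-Maf or Blimp-1 are known in tissues. PGE2 acts on T cells mainly through EP2 and EP4, receptors that raise cyclic AMP.

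Levels are in FPKM, fragment numbers scaled to transcript length and library size, so that levels of different genes in a library can be set side by side. The identity of the sorted cells was checked on markers. Foxp3 lay between 75.4 and 136 FPKM, Cd4 between 157 and 190 and Cd3e between 144 and 161 in the 6 libraries. The list of 8 markers of CD4 regulatory T cells summed to 2147 to 2195 FPKM with PGE2 and to 1691 to 1781 FPKM with vehicle. Mean levels were lower with PGE2 for Il2ra and Ikzf4 and higher for the other genes of that list. Markers of B cells, myeloid cells and erythroid cells had mean levels under 1 FPKM for every gene of the 3 lists. Of 3 markers of gamma-delta and NKT cells, Tcrg-C1 (mean 2.91 FPKM) and Trdc (mean 1.24 FPKM) were above it. The list summed to 4.52 to 5.37 FPKM with PGE2 and to 2.63 to 4.46 FPKM with vehicle. The sum was higher in every PGE2 library than in any vehicle library. Its genes did not move together. Mean levels with PGE2 and vehicle were 3.52 and 2.30 FPKM for Tcrg-C1, 0.275 and 0.113 FPKM for Zbtb16, but 1.20 and 1.29 FPKM for Trdc. Of all tested genes, 19.7% had groups that do not overlap, in either direction. The part of the difference in this sum in the results was not tested. The ratio of read coverage to FPKM, which is proportional to sequencing depth, gave 4.54 to 5.45 gigabases of fragments in the PGE2 libraries and 3.996 to 5.12 in the vehicle libraries, the lowest of each group being replicate 3.

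The factors spanned a wide range of levels. Runx3 stood highest, with a mean of 46.9 FPKM over the 6 libraries, followed by Gata3 at 21.8, Maf at 13.1, Runx1 at 11.3, Tbx21 at 7.53, Eomes at 3.19 and Prdm1 at 2.24 FPKM. Ahr at 0.961, Rora at 0.867 and Bcl6 at 0.447 FPKM were under the minimum of a mean of 1 FPKM set for testing. The ranges of the 6 libraries did not overlap between Runx3 and Gata3, between Gata3 and Maf, between Runx1 and Tbx21 or between Tbx21 and Eomes. They overlapped between Maf and Runx1, between Eomes and Prdm1 and for each neighbour below Prdm1. Part of this order differed in read coverage divided by each library's ratio of coverage to FPKM. There Runx1, at 3.02 to 4.20, lay wholly below Tbx21, at 6.10 to 8.86, and below Maf, at 6.22 to 9.69, and it overlapped Eomes, at 1.49 to 4.17. The place of Runx1 above Tbx21 and beside Maf thus holds in FPKM and not in coverage. Among all 12113 tested genes, Runx3 was at the 87.1 percentile of mean level, Gata3 at the 71.8 and Prdm1 at the 13.0.

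Of the 7 tested factors, 1 fell with PGE2 and 0 rose, by limma on log2(FPKM + 1) at a Benjamini-Hochberg adjusted p under 0.05. The factor that fell was Eomes. Over all tested genes 0.809% were called, with 0.239% lower and 0.57% higher. The median log2 change of the 7 factors was 0.13, against -0.03 for all tested genes, and mean log2 values were higher with PGE2 for 4 of the 7, against 43.3% of all tested genes, and lower for 3. With the replicate number as a block, Eomes was again the 1 factor called, while 3.26% of all tested genes were called. At an unadjusted p under 0.05, Eomes was the 1 factor of 7 as well, against 13% of all tested genes.

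**Figure D1:**
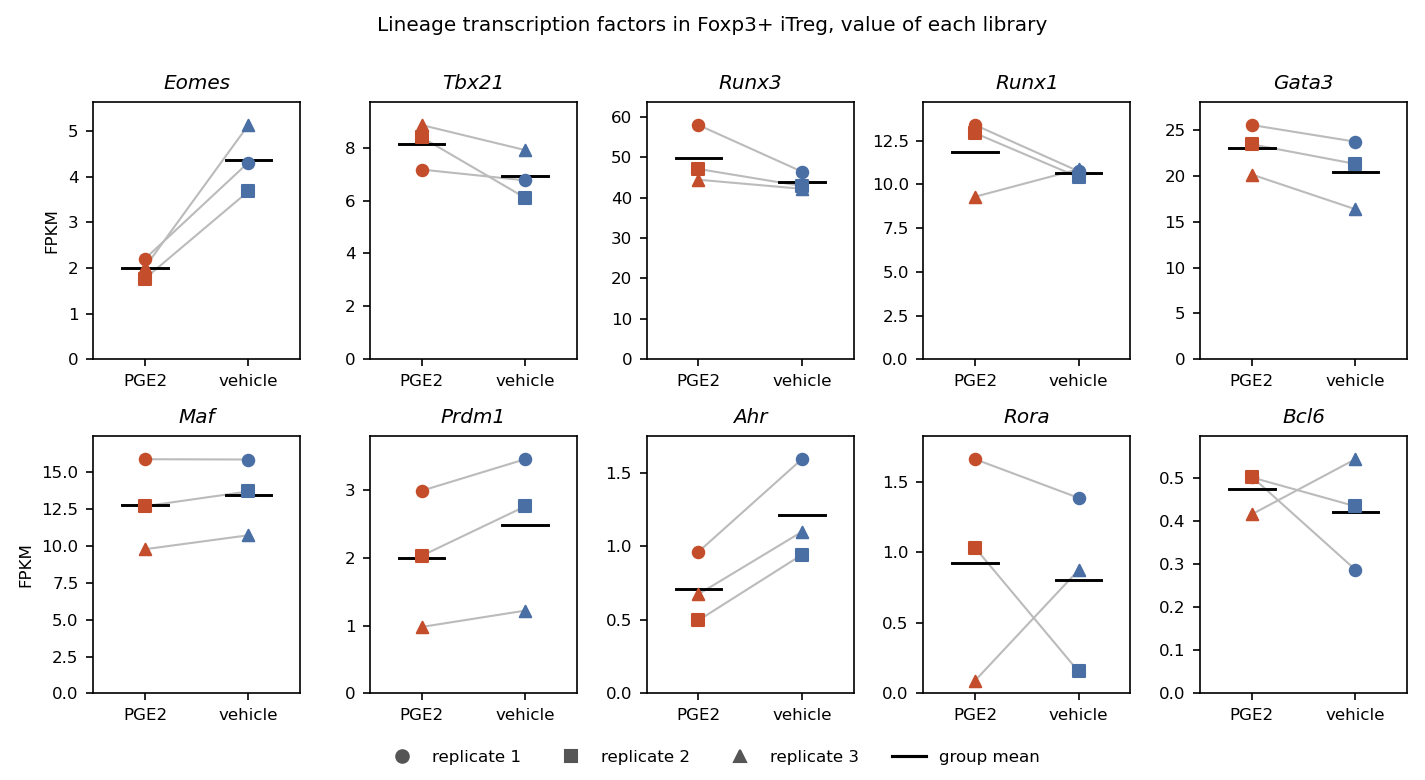
FPKM of the 10 factors (vertical axes, each starting at 0) in PGE2 and vehicle libraries, with 1 point per library, lines joining libraries of the same replicate number and black bars for group means. Eomes is lower in all 3 PGE2 libraries, at 1.77 to 2.20 FPKM against 3.68 to 5.14 with vehicle. Maf, Prdm1, Gata3, Runx3 and Ahr keep a like order of the replicate numbers in both groups.

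Eomes (eomesodermin, ENSMUSG00000032446.14) is a T-box protein that acts in memory CD8 T cells and in natural killer cells. It is a protein-coding gene on chromosome 9 from 118478212 to 118486132 of mm10, plus strand, and its value is that of the whole gene. It was at 2.20, 1.77 and 2.02 FPKM in PGE2 replicates 1, 2 and 3, against 4.31, 3.68 and 5.14 FPKM in vehicle replicates 1, 2 and 3. All PGE2 libraries lay below all vehicle libraries. Groups that do not overlap, in either direction, were seen for 19.7% of all tested genes. The means were 2.00 ± 0.217 FPKM with PGE2 and 4.38 ± 0.729 FPKM with vehicle (SD, n = 3 each), a log2 change of -0.84 (SE 0.13, 95% interval -1.15 to -0.53, adjusted p = 0.0459 with limma).

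The read coverage of Eomes showed the same. Divided by each library's ratio of coverage to FPKM, it was 1.79, 1.49 and 1.73 in PGE2 replicates 1, 2 and 3, against 3.61, 3.10 and 4.17 in vehicle replicates 1, 2 and 3. Its log2 change was -0.79 (SE 0.11, adjusted p = 0.0265 with limma), and in coverage Eomes was the 1 factor of 7 called, against 1.31% of all tested genes, 0.388% lower and 0.925% higher. The call rests on all 6 libraries. Without PGE2 replicate 1, 2 or 3 the adjusted p with limma was 0.133, 0.205 and 0.108, and without vehicle replicate 1, 2 or 3 it was 0.171, 0.0886 and 0.0741, while the log2 change stayed between -0.93 and -0.74. It was also lost when every gene above 0 FPKM was tested (adjusted p = 0.162 with limma), and over all alternatives the adjusted p ran from 0.00803 to 0.205.

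The sort was on GFP, and cells of the CD8 and natural killer type, which express Eomes, are a possible admixture. Their list of 6 markers summed to 9.54 to 12.5 FPKM with PGE2 and to 7.03 to 9.12 FPKM with vehicle. The sum was higher in every PGE2 library than in any vehicle library. Of all tested genes, 19.7% had groups that do not overlap, in either direction. Mean levels with PGE2 and vehicle were 5.60 and 4.79 FPKM for Cd8b1 and 3.10 and 1.46 FPKM for Klrd1. They were 1.17 and 1.06 FPKM for Gzma and 0.702 and 0.689 FPKM for Cd8a. Cd8b1 gave the largest part of the sum. It was at 5.31 to 5.88 FPKM with PGE2 and 4.68 to 4.96 FPKM with vehicle, without overlap, and was not called (adjusted p = 0.445 with limma). Klrd1, the receptor chain CD94 of natural killer and CD8 T cells, was at 2.54, 2.26 and 4.50 FPKM in PGE2 replicates 1, 2 and 3, against 0.961, 0.627 and 2.78 FPKM in vehicle replicates 1, 2 and 3. The groups overlapped, each PGE2 library was above the vehicle library of its number, and Klrd1 passed with the block (adjusted p = 0.0325 with limma) and not without it (adjusted p = 0.378). Gzma was at 0.941 to 1.39 FPKM with PGE2 and 0.841 to 1.27 FPKM with vehicle, and Cd8a between 0.598 and 0.868 FPKM. The groups overlapped for both genes. The natural killer markers Klrb1c and Ncr1 were listed at 0 in all 6 libraries. The part of such cells in the Eomes values was not tested. In such bulk samples, fewer cells that express a gene and less of its RNA per cell cannot be told apart.

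Tbx21 (ENSMUSG00000001444.2), which encodes T-bet, the other T-box factor of the set, lies on chromosome 11 from 97098071 to 97115331 of mm10, minus strand, and is annotated with 1 transcript. It was at 7.17, 8.39 and 8.86 FPKM in PGE2 replicates 1, 2 and 3, against 6.76, 6.10 and 7.91 FPKM in vehicle replicates 1, 2 and 3. The groups overlapped, since PGE2 replicate 1 lay below vehicle replicate 3, although each PGE2 library was above the vehicle library of the same number. The log2 change was 0.21 (SE 0.12, 95% interval -0.08 to 0.49, adjusted p = 0.548 with limma), an interval that holds no change as well as a 1.41-fold increase.

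The ratio of Eomes to Tbx21 was lower in every PGE2 library than in any vehicle library. Eomes stood at 0.307, 0.211 and 0.228 of the Tbx21 level in PGE2 replicates 1, 2 and 3, against 0.638, 0.603 and 0.65 of it in vehicle replicates 1, 2 and 3. On the log2 scale the ratio averaged -2.03 ± 0.286 with PGE2 and -0.67 ± 0.0555 with vehicle (SD, n = 3 each), a difference of -1.36 (two-sided exact permutation p = 0.1, the smallest that 3 against 3 can give). In coverage the difference was -1.35.

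The sequences before and at the start of the T-box genes are shown because Eomes was called lower and its paralogue Tbx21 was not called. They are RefSeq windows of GRCm38.p6, from 250 bases before to 50 after the gene start, 5′ to 3′ on the gene's strand: Eomes at chr9:118477939-118478238, plus strand, and Tbx21 at chr11:97115282-97115581, minus strand. Capitals would mark a match, on either strand, to the cyclic AMP response element TGACGTCA, to its core TGACG, to the RUNX motif TGTGGT or to the T-box motif GGTGTGA, and neither window holds one.
Eomes: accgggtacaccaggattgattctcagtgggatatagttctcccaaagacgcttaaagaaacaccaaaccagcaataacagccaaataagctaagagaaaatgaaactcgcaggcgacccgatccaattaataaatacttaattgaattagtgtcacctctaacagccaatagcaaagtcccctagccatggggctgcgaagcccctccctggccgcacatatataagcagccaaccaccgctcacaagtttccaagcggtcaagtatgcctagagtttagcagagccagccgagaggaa
Tbx21: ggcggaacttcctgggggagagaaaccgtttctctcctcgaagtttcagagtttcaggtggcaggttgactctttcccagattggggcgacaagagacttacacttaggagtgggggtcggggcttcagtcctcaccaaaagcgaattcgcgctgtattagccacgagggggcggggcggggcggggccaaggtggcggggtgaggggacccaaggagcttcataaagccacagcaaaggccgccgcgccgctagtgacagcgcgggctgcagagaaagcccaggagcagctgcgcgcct
Of 32851 windows of all genes, 1.79% hold the full cyclic AMP element, 20.8% its core, 16.8% the RUNX motif and 3.98% the T-box motif. The core is part of the full element, so the windows of the first count lie within the second. The GC content of the Eomes window was 47.3% and that of the Tbx21 window 62%. No match says only that these letters are not in the windows.

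A few tested genes had patterns over the 6 libraries most like that of Eomes. By Pearson's r of log2(FPKM + 1) they were Cmtr2, which methylates the cap of messenger RNA (r = 0.996), Mmab, an enzyme of cobalamin metabolism (r = 0.987), and Wdr5, a subunit of histone methyltransferase complexes (r = 0.986). They share all 6 libraries with Eomes, and their differences were smaller, with log2 changes of -0.26, -0.20 and -0.28 that did not pass the test (adjusted p = 0.348, 0.384 and 0.173 with limma).

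Genes known as targets of T-bet and Eomes were mostly not called. Of 20 such genes 16 were tested, 1 rose and 0 fell, and their median log2 change was 0.06, against -0.03 for all tested genes. The median was 0.37 over those with a mean of at least 5 FPKM, 0.21 without PGE2 replicate 3 and 0.20 without vehicle replicate 1. The gene that rose was Il12rb2, the chain of the IL-12 receptor that marks Th1 cells, at 40.7, 34.0 and 36.7 FPKM in PGE2 replicates 1, 2 and 3, against 12.0, 12.7 and 14.1 FPKM in vehicle replicates 1, 2 and 3. Its log2 change of 1.45 (SE 0.10, adjusted p = 0.00206 with limma) passed without any 1 library, at adjusted p of 0.00578 to 0.01895. Ifng, the cytokine of Th1 cells, was at 1.07 to 1.54 FPKM with PGE2 and 1.22 to 1.42 FPKM with vehicle (log2 change 0.01, adjusted p = 0.988). Before adjustment, Il12rb2, Fasl, Gzmb, Stat4, Il18rap and Il2rb were under 0.05 by limma and higher with PGE2. Nkg7 was under 0.05 and lower. Of all tested genes, 13% were under 0.05 before adjustment.

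With the replicate number as a block, 4 of these 16 targets rose and 1 fell. Fasl, the death ligand of cytotoxic cells, was at 7.83, 7.52 and 13.9 FPKM in PGE2 replicates 1, 2 and 3, against 2.37, 1.85 and 3.67 FPKM in vehicle replicates 1, 2 and 3. All its PGE2 libraries lay above all vehicle libraries, with a log2 change of 1.55 (adjusted p = 0.00218 with limma and the block, 0.053 without it and 0.049 in coverage without it). Gzmb, a granzyme of cytotoxic granules, was at 291, 269 and 219 FPKM in PGE2 replicates 1, 2 and 3, against 184, 145 and 113 FPKM in vehicle replicates 1, 2 and 3 (log2 change 0.83, adjusted p = 0.01 with the block and limma, and 0.114 without it). The groups again did not overlap, and within each replicate number the PGE2 library was higher.

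Stat4, which carries the IL-12 signal, was at 15.3, 16.6 and 35.0 FPKM in PGE2 replicates 1, 2 and 3, against 9.29, 9.24 and 10.1 FPKM in vehicle replicates 1, 2 and 3. PGE2 replicate 3 stood apart in FPKM, and the log2 change was 1.05 in FPKM and 0.68 in coverage (adjusted p = 0.0476 with limma and the block, 0.158 without it and 0.0151 in coverage without it). Nkg7, a membrane protein of cytotoxic granules, was lower, at 39.0, 41.4 and 39.1 FPKM in PGE2 replicates 1, 2 and 3, against 53.9, 51.6 and 53.4 FPKM in vehicle replicates 1, 2 and 3 (log2 change -0.40, adjusted p = 0.0414 with limma and the block, 0.0665 without it and 0.0482 in coverage without it). Among genes tied to cytotoxic cells, Fasl and Gzmb were thus higher in every PGE2 library than in any vehicle library. Eomes and Nkg7 were lower in every PGE2 library. Groups that do not overlap, in either direction, were seen for 19.7% of all tested genes. For Gzma, Gzmk and Prf1, which also encode proteins of cytotoxic granules, the groups overlapped. The 4 targets not tested, Ccl3, Prf1, Hlx and Gzmk, were under a mean of 1 FPKM.

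RUNX factors bind DNA with the subunit CBFβ. In T cells RUNX3 silences Cd4 in the CD8 lineage and works with T-bet in Th1 cells, and RUNX1 is needed for Foxp3 expression and for regulatory T cell function. Runx3 (ENSMUSG00000070691.10, chromosome 4 from 135120652 to 135177990, plus strand) was at 58.0, 47.1 and 44.5 FPKM in PGE2 replicates 1, 2 and 3, against 46.5, 42.9 and 42.2 FPKM in vehicle replicates 1, 2 and 3. Each PGE2 library was above the vehicle library of the same number, but the groups overlapped. The log2 change was 0.17 (SE 0.11, 95% interval -0.09 to 0.44, adjusted p = 0.594 with limma).

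Runx1 (ENSMUSG00000022952.16, chromosome 16 from 92601466 to 92826149, minus strand) was at 13.4, 12.9 and 9.29 FPKM in PGE2 replicates 1, 2 and 3, against 10.8, 10.4 and 10.9 FPKM in vehicle replicates 1, 2 and 3. PGE2 replicates 1 and 2 were above the vehicle libraries and PGE2 replicate 3 below them. The log2 change was 0.13 (SE 0.14, 95% interval -0.20 to 0.45, adjusted p = 0.788 with limma). The log2 ratio of Runx3 to Runx1 was 2.08 ± 0.198 with PGE2 and 2.04 ± 0.0773 with vehicle (SD, n = 3 each; two-sided exact permutation p = 0.8), a difference of 0.04 that was smaller than either spread. Both genes are annotated with several transcripts, 6 for Runx3 and 7 for Runx1, and the value of each is that of the whole gene.

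The upstream windows of the RUNX genes share a motif of their own family, which the sequences show. These are RefSeq windows of GRCm38.p6 at chr4:135120395-135120694, plus strand, for Runx3 and at chr16:92826025-92826324, minus strand, for Runx1, and capitals mark the reverse complement of TGTGGT.
Runx3: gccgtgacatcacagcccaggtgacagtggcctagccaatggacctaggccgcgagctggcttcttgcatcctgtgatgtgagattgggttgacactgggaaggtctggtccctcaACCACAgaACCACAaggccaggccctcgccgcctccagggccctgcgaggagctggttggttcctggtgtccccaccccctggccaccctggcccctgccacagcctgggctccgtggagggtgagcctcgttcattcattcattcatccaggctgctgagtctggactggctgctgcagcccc
Runx1: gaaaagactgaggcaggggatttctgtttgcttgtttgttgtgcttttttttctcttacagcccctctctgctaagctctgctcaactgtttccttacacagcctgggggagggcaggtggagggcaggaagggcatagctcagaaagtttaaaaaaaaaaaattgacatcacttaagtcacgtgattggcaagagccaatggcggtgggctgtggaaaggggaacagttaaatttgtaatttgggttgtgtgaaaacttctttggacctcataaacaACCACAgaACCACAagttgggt
In each window the motif occurs as a pair spaced by 2 bases, within a run of 18 bases that both windows share, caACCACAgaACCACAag. Counted from the RefSeq start on which each window is set, which is not the gene boundary given above, the run begins 136 bases before the start in Runx3 and 26 bases after it in Runx1. Such a pair, on either strand, is in 7 of the 32851 windows of all genes, or 0.0213%. The pair was defined from the Runx3 and Runx1 windows, which are counted among the 7, so this share is a description. A second window listed for each gene, at another start, has no match to TGTGGT.

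Of 7 genes known as RUNX targets in T cells, 6 were tested, 1 rose and 0 fell, with a median log2 change of 0.16. The gene that rose was Ctla4, the receptor by which regulatory T cells restrain B7 ligands. It was at 339, 351 and 346 FPKM in PGE2 replicates 1, 2 and 3, against 205, 201 and 191 FPKM in vehicle replicates 1, 2 and 3, with a log2 change of 0.79 (SE 0.08, adjusted p = 0.00758 with limma). Leaving out PGE2 replicate 2 gave an adjusted p of 0.0743 and leaving out vehicle replicate 2 one of 0.059. Itgae, the integrin CD103 that RUNX3 is known to favour in CD8 T cells, was at 13.9, 9.51 and 8.02 FPKM in PGE2 replicates 1, 2 and 3, against 23.0, 16.6 and 16.4 FPKM in vehicle replicates 1, 2 and 3. Every PGE2 library lay below every vehicle library, and the log2 change of -0.79 passed with the block (adjusted p = 0.0104 with limma) and not without it (adjusted p = 0.151). Ctla4 and Itgae were the tested RUNX targets under 0.05 before adjustment, in opposite directions. Cd8b1 was at 5.31 to 5.88 FPKM with PGE2 and 4.68 to 4.96 FPKM with vehicle (log2 change 0.19, adjusted p = 0.445). Cbfb, the highest of the partner genes, was at 68.1 ± 2.85 FPKM with PGE2 and 74.2 ± 15.3 FPKM with vehicle (SD, n = 3 each), and Zbtb7b, which encodes ThPOK, the factor that keeps CD4 cells from the CD8 fate, at 29.3 ± 1.20 FPKM with PGE2 and 31.2 ± 2.47 FPKM with vehicle. Neither passed the test (adjusted p = 0.851 and 0.766 with limma).

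**Figure D2:**
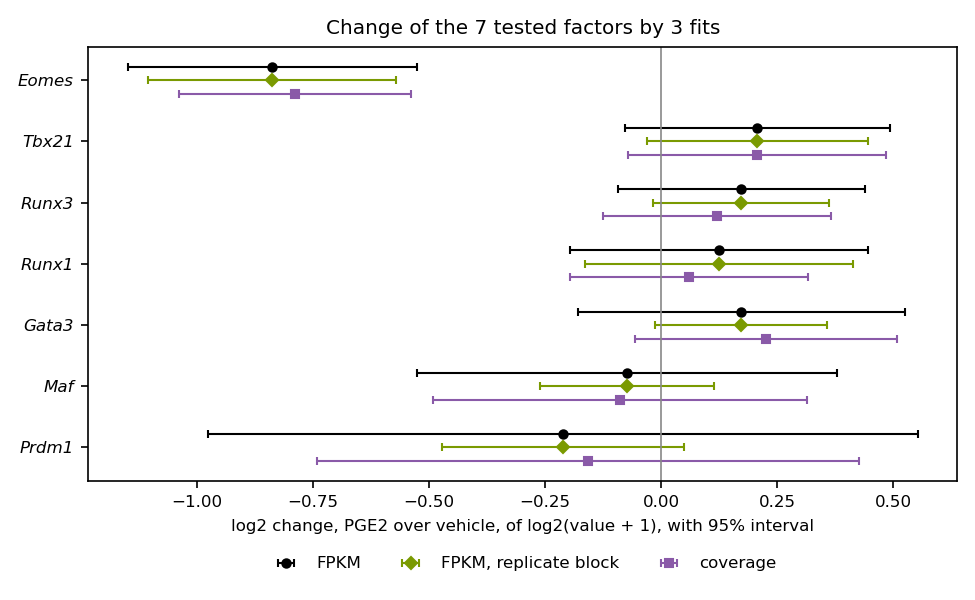
Log2 change of the 7 tested factors, PGE2 over vehicle, on the log2(value + 1) scale, with 95% intervals from limma for FPKM, for FPKM with the replicate block and for coverage. The intervals of Eomes, centred at -0.84, -0.84 and -0.79, lie below 0, and each interval of the other 6 factors includes 0.

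Gata3 (ENSMUSG00000015619.10), the factor of Th2 cells that is also expressed in activated regulatory T cells, lies on chromosome 2 from 9857078 to 9890034, minus strand. It was at 25.6, 23.5 and 20.2 FPKM in PGE2 replicates 1, 2 and 3, against 23.8, 21.3 and 16.4 FPKM in vehicle replicates 1, 2 and 3. In both groups replicate 1 was highest and replicate 3 lowest, and each PGE2 library was above its vehicle counterpart, while the groups as such overlapped. The log2 change was 0.17 (SE 0.15, 95% interval -0.18 to 0.53, adjusted p = 0.712 with limma). With the block the SE was 0.08 and the adjusted p 0.285.

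Of 10 Gata3 target genes 4 were tested and 0 were called by limma (0 also before adjustment at 0.05, and 0 in the blocked fit), with a median log2 change of 0.26. The median was 0.0569 over all list genes above 0 FPKM and 0.13 without PGE2 replicate 2. Ccr8, a chemokine receptor of Th2 and tissue regulatory T cells and the highest of them, was at 82.2, 61.8 and 82.6 FPKM in PGE2 replicates 1, 2 and 3, against 57.7, 44.0 and 69.6 FPKM in vehicle replicates 1, 2 and 3 (log2 change 0.41, adjusted p = 0.413, and 0.0555 with the block). Il4, Il5 and Il13, the Th2 cytokines, had means under 1 FPKM. Zfpm1, the GATA cofactor FOG-1, was at 9.32, 8.79 and 5.94 FPKM in PGE2 replicates 1, 2 and 3, against 13.7, 13.0 and 9.69 FPKM in vehicle replicates 1, 2 and 3. It was lower in every PGE2 library, and its log2 change of -0.55 passed with the block (adjusted p = 0.0241 with limma) and not without it (adjusted p = 0.264). It was the 1 of 10 tested partners and paralogues called with the block, and without the block 0 of them were called by limma, 1 at an unadjusted p under 0.05.

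Maf and Prdm1 differed between replicate numbers far more than between treatments. Maf (ENSMUSG00000055435.6, chromosome 8 from 115682942 to 115707794, minus strand) encodes c-Maf, which drives Il10 and marks effector and gut regulatory T cells. It was at 15.9, 12.7 and 9.79 FPKM in PGE2 replicates 1, 2 and 3, against 15.9, 13.7 and 10.7 FPKM in vehicle replicates 1, 2 and 3. Prdm1 (ENSMUSG00000038151.12, chromosome 10 from 44437177 to 44528501, minus strand) encodes Blimp-1, a repressor of effector lymphocytes that works with c-Maf on Il10. It was at 2.98, 2.03 and 0.979 FPKM in PGE2 replicates 1, 2 and 3, against 3.45, 2.75 and 1.22 FPKM in vehicle replicates 1, 2 and 3.

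For both genes libraries of 1 number were close to each other and replicate 3 was low in both groups. The log2 change was -0.07 for Maf (SE 0.19, 95% interval -0.53 to 0.38, adjusted p = 0.921 with limma) and -0.21 for Prdm1 (SE 0.33, 95% interval -0.98 to 0.55, adjusted p = 0.869). With the block the SE was 0.08 for Maf and 0.11 for Prdm1, and neither passed (adjusted p = 0.652 and 0.346). Over the 6 libraries Maf and Prdm1 had a Pearson r of 0.983, the highest of the 21 pairs of tested factors, given as a description of libraries that share depth and replicate number.

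The sum of squares of log2(FPKM + 1) over the 6 libraries was split into a part that went with treatment, a part that went with the replicate number and a remainder. The replicate number held 96.5% of it for Maf, 93.4% for Prdm1 and 77.1% for Gata3, against a median of 44.8% over all tested genes. Treatment held 91.5% of it for Eomes, 40.8% for Tbx21 and 33.6% for Runx3, against a median of 18.2% over all tested genes. For Tbx21 the replicate number held about as much as treatment, at 40.3%, and for Runx3 it held more, at 54.6%. For Runx1 the remainder, at 48.9%, was the largest part. In coverage the replicate number held 94.2% for Maf, 93.05% for Prdm1 and 51.7% for Gata3. Depth was also lowest in both libraries numbered 3, and its part in these values was not tested.

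**Figure D3:**
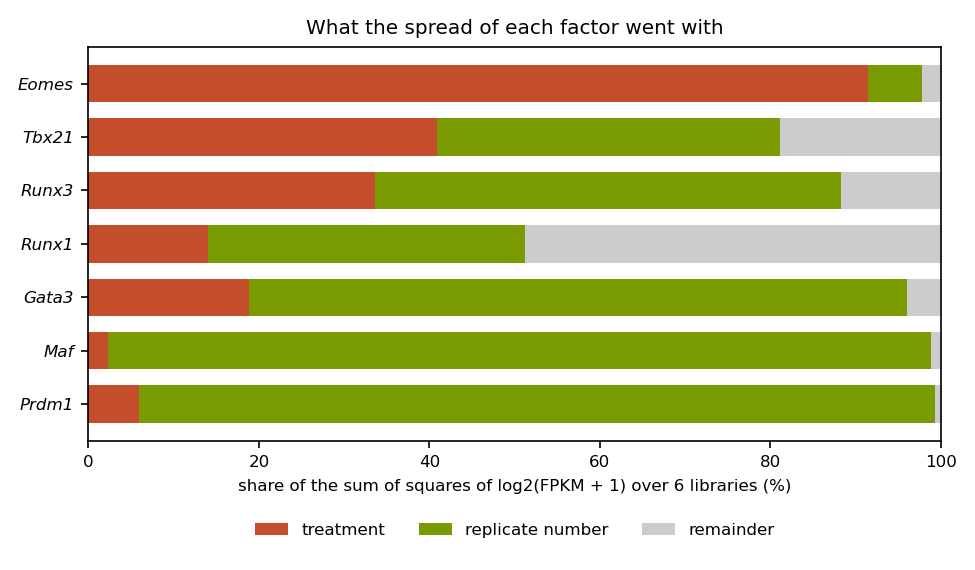
Share of the sum of squares of log2(FPKM + 1) over 6 libraries (horizontal axis, percent) that went with treatment, with the replicate number and with the remainder, for each tested factor. Treatment takes 91.5% for Eomes, and the replicate number takes 96.5% for Maf and 93.4% for Prdm1.

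Genes of the co-inhibitory module that c-Maf and Blimp-1 are known to share followed the replicate numbers too. Of 6 genes 5 were tested and 0 were called by limma (0 also before adjustment at 0.05, and 0 in the blocked fit), with a median log2 change of 0.20. Tigit, an inhibitory receptor and the highest of them, was at 21.8, 17.7 and 12.4 FPKM in PGE2 replicates 1, 2 and 3, against 19.5, 14.4 and 9.07 FPKM in vehicle replicates 1, 2 and 3 (adjusted p = 0.759, and 0.139 with the block). Il10, the suppressive cytokine, was at 6.79, 4.53 and 3.53 FPKM in PGE2 replicates 1, 2 and 3, against 4.70, 3.997 and 2.30 FPKM in vehicle replicates 1, 2 and 3 (adjusted p = 0.642, and 0.146 with the block). For both genes each PGE2 library was above the vehicle library of its number and the groups overlapped. The replicate number held 74.1% of the sum of squares for Il10, 79.8% for Procr, 85.6% for Tigit, 97.7% for Lag3 and 99.8% for Havcr2.

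Genes that Blimp-1 is known to repress were not called either. Of 8 genes 6 were tested and 0 were called by limma (2 before adjustment at 0.05, and 0 in the blocked fit), with a median log2 change of 0.03. The median turned to -0.0568 over all list genes above 0 FPKM and to -0.0396 without PGE2 replicate 2. Ccr7, the receptor that takes naive T cells to lymph nodes and the highest of them, had a log2 change of 0.43 (SE 0.10, adjusted p = 0.12), and Tcf7, a factor of naive and memory T cells, one of -0.24 (SE 0.10, adjusted p = 0.361). These 2 were the ones under 0.05 before adjustment, in opposite directions.

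Bcl6, Rora and Ahr were under 1 FPKM on average and were not tested. Bcl6 (ENSMUSG00000022508.5, chromosome 16 from 23965052 to 23988852), which represses Prdm1 and is repressed by it, was at 0.502, 0.501 and 0.415 FPKM in PGE2 replicates 1, 2 and 3, against 0.287, 0.434 and 0.543 FPKM in vehicle replicates 1, 2 and 3. The groups overlapped, and vehicle replicates 1 and 3 were the lowest and the highest of the 6. Prdm1 exceeded Bcl6 by 5.94, 4.05 and 2.36 times in PGE2 replicates 1, 2 and 3, and by 12.0, 6.34 and 2.24 times in vehicle replicates 1, 2 and 3 (two-sided exact permutation p = 0.5). An assembled locus over Bcl6 was also listed in each library, at 0.713 to 1.17 FPKM. The value of the annotated gene was 37.2 to 63.7% of it, so the ratio depends on the entry used.

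Of 10 follicular helper genes tied to BCL6, 6 were tested, 1 rose and 0 fell by limma, and 3 rose with the block. The median log2 change was 0.48 over the tested genes and 0.155 over all list genes above 0 FPKM. Pdcd1, the inhibitory receptor PD-1, was at 28.9, 27.0 and 23.9 FPKM in PGE2 replicates 1, 2 and 3, against 13.7, 13.3 and 10.1 FPKM in vehicle replicates 1, 2 and 3. The groups did not overlap. It had a log2 change of 1.05 (SE 0.13, adjusted p = 0.0201 with limma), and it missed the threshold without PGE2 replicate 1 or 2 or vehicle replicate 1 or 2 (adjusted p = 0.0988, 0.109, 0.0552 and 0.0658). With the block Icos, a costimulatory receptor, at 175 ± 16.6 FPKM with PGE2 and 116 ± 11.3 FPKM with vehicle (SD, n = 3 each), also passed (adjusted p = 0.0145 with limma, and 0.0697 without the block), as did Cd200, an inhibitory ligand, at 30.3 ± 7.43 FPKM with PGE2 and 17.2 ± 2.47 FPKM with vehicle (adjusted p = 0.0131, and 0.145 without the block). In coverage without the block Cd200 passed (adjusted p = 0.035 with limma) and Icos did not (adjusted p = 0.0582). These 3 genes are also known as markers of activated regulatory T cells, and Cxcr5, Il21 and Ascl2, which define follicular helper cells, had means under 1 FPKM. Before adjustment, Pdcd1, Icos, Cd200 and Sh2d1a were under 0.05 by limma and higher, and Il6ra was under 0.05 and lower. Il6ra was at 4.25 to 5.05 FPKM with PGE2 and 5.83 to 8.03 FPKM with vehicle (log2 change -0.50, adjusted p = 0.151 with limma). In coverage with the block its adjusted p was 0.047. Btla was lower as well (log2 change -0.23, adjusted p = 0.456 with limma).

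Rora (ENSMUSG00000032238.17, chromosome 9 from 68653786 to 69388246, plus strand), an orphan receptor of Th17 cells and of regulatory T cells in skin, was listed at 1.66, 1.03 and 0.0915 FPKM in PGE2 replicates 1, 2 and 3, against 1.39, 0.156 and 0.874 FPKM in vehicle replicates 1, 2 and 3. The 2 low libraries were 1 of each group. In coverage divided by the library ratio the libraries were close, at 0.183, 0.120 and 0.0915 in PGE2 replicates 1, 2 and 3, against 0.145, 0.156 and 0.119 in vehicle replicates 1, 2 and 3, so that the spread of Rora in FPKM was not seen in its read coverage. The gene is annotated with 6 transcripts over 734 kilobases. Of 8 target genes of the ROR factors, among them Il17a, Il17f and Il23r, 0 reached a mean of 1 FPKM.

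Ahr (ENSMUSG00000019256.17, chromosome 12 from 35497974 to 35535038, minus strand), a receptor for dietary and microbial ligands that acts in Th17 and gut regulatory T cells, was at 0.962, 0.497 and 0.674 FPKM in PGE2 replicates 1, 2 and 3, against 1.59, 0.942 and 1.099 FPKM in vehicle replicates 1, 2 and 3. Each PGE2 library was below the vehicle library of its number, and the groups overlapped by a small margin in FPKM and not in coverage. When every gene above 0 FPKM was tested, its log2 change was -0.37 (SE 0.16, 95% interval -0.77 to 0.04, adjusted p = 0.591 with limma). With a pseudocount of 0.1 in place of 1 the log2 change was -0.70. In coverage it was -0.33, with a 95% interval of -0.65 to -0.00932 that lies below 0 and an adjusted p of 0.478 with limma. Of 8 AHR target genes 3 were tested and 0 were called by limma (0 also before adjustment at 0.05, and 0 in the blocked fit), with a median log2 change of -0.07. Nqo1, a quinone reductase and the highest of them, was at 3.50, 2.88 and 4.91 FPKM in PGE2 replicates 1, 2 and 3, against 3.65, 3.24 and 5.09 FPKM in vehicle replicates 1, 2 and 3.

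**Figure D4:**
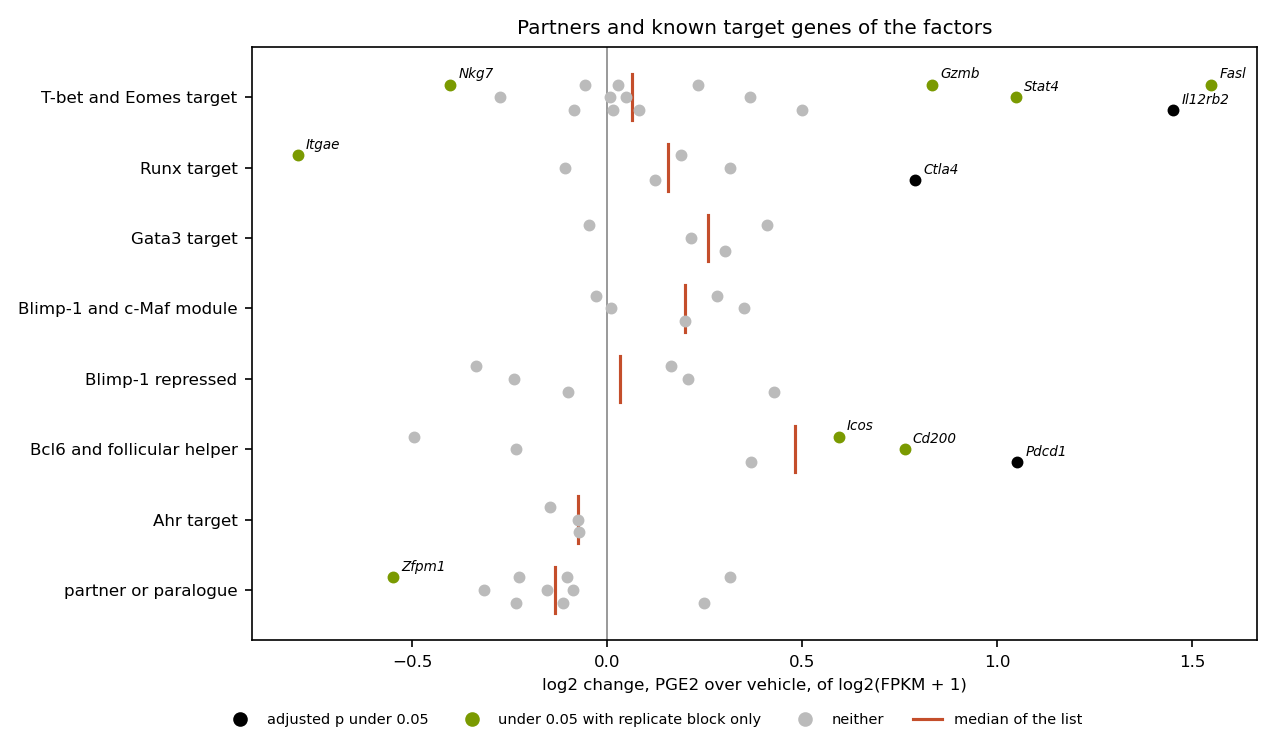
Log2 change of log2(FPKM + 1), PGE2 over vehicle, of tested partner and target genes, with 1 point per gene, black where the adjusted p was under 0.05, green where it was so only with the replicate block, and a red line at the median of each list. Il12rb2, Ctla4 and Pdcd1 are black, and Fasl stands farthest to the right at 1.55.

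Over all 93 partner and target genes 56 were tested, 3 rose and 0 fell, and with the block 8 rose and 3 fell. The share of all tested genes called was 0.809% without the block and 3.26% with it. The lists were chosen with results of these data known, and their counts are a description. Overlapping genes at the loci were low. Annotated genes that overlap a factor reached at most 1.06 FPKM, for Gm16224 on the strand opposite to Runx3, and the 1 such gene on the same strand, 9230102O04Rik at Gata3, at most 0.373 FPKM.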

How the data were processed

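RNA of 6 libraries was sequenced with a stranded kit for polyadenylated RNA, per the labels' protocols. The submitters' processing notes name Trim Galore, HISAT2 and the build mm10. The sources used here do not give versions, the annotation, the program behind the gene tables or its strand setting. Per the file headers, each table gives coverage and FPKM per gene. FPKM as deposited is normalized for transcript length and library size. Coverage as deposited is a signal, the mean depth of reads. Entries under annotated IDs were used, with repeats of an ID added up.

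Testing took the 12113 of 47643 genes whose mean reached 1 FPKM, and used limma 3.58.1 in R 4.3.3 on log2(FPKM + 1), with a variance trend, no covariate and Benjamini-Hochberg adjustment, two-sided at 0.05. Fold changes of low genes are understated on this scale. Coverage was divided by each library's median ratio of coverage to FPKM over genes with 1 transcript, 3.996 to 5.45 (gigabases), which stands for depth. Counts are not at hand, so no counting interval was computed. The procedure was tested on simulated data.

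The titles' replicate numbers may pair the libraries. Deviations from the group means correlated across tested genes at 0.227, 0.312 and 0.529 for numbers 1, 2 and 3, each over 0.1, so results with the replicate block are given where they change a call. PGE2 replicate 1 correlated more with vehicle replicate 2, at 0.271. The share of all tested genes that keep the same direction within every replicate number was not computed. Statements on libraries of the same number are therefore a description.

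The factors, lists and tests were chosen with earlier results of these data known. All 10 factors are named, with each called gene of a list or else its highest. Genes called in FPKM only with the block, Ifng, Cd8b1, Klrd1, Zbtb7b, Tcf7, genes of the c-Maf module other than Tigit, and untested target genes were named after their values were seen. The same holds for Il18rap, Il2rb, Sh2d1a, Il6ra, Btla and, as a RUNX target, Foxp3. Of the genes called in FPKM only with the block, Fasl, Stat4, Nkg7 and Cd200 also passed in coverage without it. Gzmb, Icos, Itgae, Zfpm1 and Klrd1 did not. Sequences are from RefSeq (GRCm38.p6) and hold 8 of the 10 factors, all but Maf and Ahr. Gene positions matched GENCODE M21 for all 10. Figures used matplotlib 3.10.9. No read-level processing was repeated.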

Additional observations from a re-analysis of the deposited data

How the results depend on the processing

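The lower level of Eomes kept its direction in all 16 alternatives, at log2 changes of -1.09 to -0.74, and passed in 8. It did not pass with no filter on low values (-0.84, or -0.79 in coverage) or without any 1 library (-0.93 to -0.74). A minimum mean of 5 FPKM left it untested, and under these settings 0 factors were called lower. Rises among all genes numbered 69, against 33 with no filter, 112 in coverage, 215 with the replicate block, 325 in coverage with the block and 16 to 53 without 1 library. Falls numbered 29, against 12 with no filter, 16 with equal sums of FPKM, 47 in coverage, 16 with no variance trend, 180 with the replicate block, 310 in coverage with the block and 4 to 16 without 1 library. Partner and target genes called higher with PGE2 numbered 3, against 6 in coverage and 8 with the replicate block. They numbered 11 in coverage with the block and 1 to 3 without 1 library. Those called lower numbered 0, against 1, 3 and 4 in coverage, with the block and with both. Without 1 library, Prdm1 ranged from -0.51 to 0.0587, Maf from -0.23 to 0.0917, the log2 ratio of Runx3 to Runx1 from -0.0472 to 0.149 and that of Prdm1 to Bcl6 from -1.19 to 0.0254. The first 3 turned direction without PGE2 replicate 3, Maf also (0.05) without vehicle replicate 1, and the ratio of Prdm1 to Bcl6 without vehicle replicate 1. None of these had passed a test, and the cause was not tested. The fits in coverage with the block, and in coverage with no filter, were chosen after seeing the data. Mean levels under 1 FPKM left Ahr, Rora and Bcl6 untested.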

Other observations

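Cyp1a1, the AHR target that is the usual readout of that receptor, was under the minimum for testing and was named after its values were seen. It was at 0.621, 0.275 and 0.364 FPKM in PGE2 replicates 1, 2 and 3, against 0.969, 0.598 and 0.729 FPKM in vehicle replicates 1, 2 and 3. Each PGE2 library was below the vehicle library of its number, as for Ahr, while the groups overlapped. The other untested AHR targets went both ways. Mean levels with PGE2 and vehicle were 0.984 and 0.924 FPKM for Ahrr and 0.680 and 0.584 FPKM for Entpd1. They were 0.110 and 0.162 FPKM for Cyp1b1 and 0 and 0.0123 FPKM for Aldh3a1.

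Gata1, the erythroid paralogue of Gata3, was at 15.6, 17.3 and 15.1 FPKM in PGE2 replicates 1, 2 and 3, against 18.5, 17.1 and 16.5 FPKM in vehicle replicates 1, 2 and 3. It was not called (log2 change -0.11, adjusted p = 0.673 with limma). The erythroid markers Hbb-bs, Hba-a1 and Alas2 together summed to 0.625 to 1.25 FPKM with PGE2 and 0.736 to 0.96 FPKM with vehicle. Gata1 was named after its values were seen.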
